A study of Rattus norvegicus with 28 samples.

Results

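Respiratory complex I was followed through the 40 genes whose symbol begins with Nduf, the name shared by its nuclear-encoded parts, out of 11383 genes in the RNA table. Of these, 32 encode structural subunits, 7 encode assembly factors and 1, Ndufa4, encodes a protein now counted with complex IV. All 40 passed the filter on low values, so every member entered the test. Cardiomyocytes were isolated from rats aged 6 to 8 months, infected with adenovirus and kept in culture for 48 hours. The shDesmin cells carried an shRNA against desmin, the main muscle intermediate filament protein, and the null cells carried a null virus. The RNA comparison is 3 shDesmin libraries against 3 null libraries of 75 base single-end reads. A null virus holds no shRNA, so the effect of losing desmin and that of carrying an shRNA cannot be told apart. No label ties a library to its own animal or culture, so p-values measure the spread between these libraries, which may be technical. The other 22 of the 28 samples are Lamin B chromatin libraries and inputs. They are used here only through a list of lamina-associated domains. That list is from scrambled control cells, not from the null virus cells of the RNA comparison.

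Complex I takes electrons from NADH, passes them through a flavin and a chain of iron-sulphur clusters to coenzyme Q, and pumps protons across the inner mitochondrial membrane. The tip of its matrix arm oxidises NADH, the base of that arm reduces coenzyme Q, and the membrane arm moves the protons. Its core subunits have bacterial counterparts, part of them are encoded by mitochondrial DNA, and the accessory subunits and assembly factors are all nuclear. Heart muscle depends on oxidative metabolism and is rich in the complex.

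Each value below is a log2 CPM, the log2 of reads divided by the library size as the authors scaled it (CPM). Desmin itself, Des, had 9.10, 9.13 and 9.32 log2 CPM in shDesmin libraries, against 12.57, 12.54 and 12.60 log2 CPM in null libraries. That is 10.5-fold lower in shDesmin cells (log2 change −3.39, SE 0.10, limma adjusted p = 7.3e-09), as the labels state. Reads over the listed genes came to 9615721, 9168307 and 9817421 in shDesmin libraries and to 9205608, 8724543 and 10908458 in null libraries. Genes of the mitochondrial genome took 35.0% to 39.1% of reads in shDesmin libraries and 24.7% to 34.5% in null libraries. All 8 cardiomyocyte markers, such as Myh6 and Tnnt2, were higher in shDesmin cells, with a median log2 change of 1.75 and a summed level of 69470 to 82418 CPM, against 21816 to 28347 CPM in null cells. Under quantile normalization their median was 0.46 and 4 of 8 were called higher, with Tnnt2 at −0.04. Of markers of other cell types, 3 of 8 fibroblast genes were measured and all 3 were higher, with a summed level of 15.4 to 24.7 CPM against 2.95 to 9.81 CPM in null cells. Of 7 measured endothelial genes 3 were higher and 1 lower, with 249 to 369 CPM in shDesmin cells against 133 to 218 CPM in null cells. Of 7 mural genes 5 were higher and 1 lower, with 537 to 887 CPM against 278 to 435 CPM in null cells. Of 2 macrophage genes 0 were higher and 1 lower, with 2.87 to 3.77 CPM against 16.1 to 17.1 CPM in null cells. Scaled to read totals, all 8 cardiomyocyte markers stayed higher. On that scale 1 fibroblast, 0 endothelial and 1 mural gene were higher, and 0, 1 and 1 were lower. Under quantile normalization 3, 3 and 4 genes of these 3 lists were higher, and 0, 0 and 1 lower. These marker levels and the mitochondrial share move with the results below, and their part in them was not tested. In bulk RNA, fewer cells of a type and less RNA per cell cannot be told apart.

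Complex I transcripts were higher in shDesmin cells in nearly the whole set. Of the 40 members, 38 were higher, 0 were lower and 2 were not called (limma, adjusted p under 0.05). The lowest log2 change was 0.04, so no member had a negative one. Across all 11033 genes tested, 27.5% were called higher and 31.4% lower. In 38 members every shDesmin library lay above every null library, which held for 29.8% of all genes. The median log2 change was 1.04 over the members, or 2.06-fold, and −0.04 over all genes. A rise of at least 2-fold was called for 25 members, against 10.6% of all genes. The authors' deposited table also called 38 members higher and 0 lower, with signed folds of 1.02 to 2.82.

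**Figure D1:**
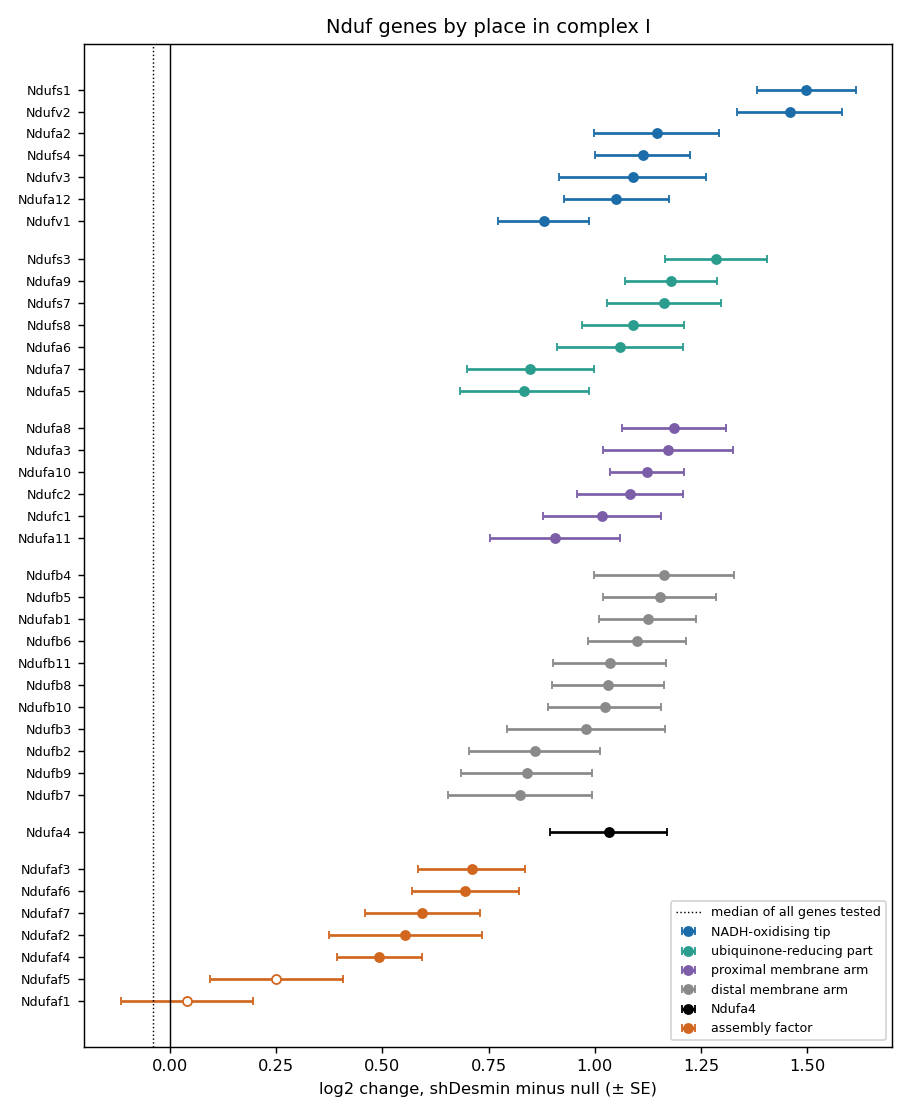
Log2 change of 39 of the 40 members (shDesmin minus null, log2 CPM), with bars of 1 standard error from limma, grouped by place in the complex. Filled points are called higher at an adjusted p under 0.05, open points are Ndufaf5 and Ndufaf1, which were not called. The subunits lie between 0.82 and 1.50 and the assembly factors between 0.04 and 0.71, where all 7 turn negative under scaling to read totals.

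The size of the change differed with the role of the gene. All 33 subunit genes, Ndufa4 included, were higher, by 1.77-fold to 2.82-fold with a median log2 change of 1.09. Of the 7 assembly factors 5 were higher, with a median log2 change of 0.55, a largest change of 1.64-fold and 0 members at 2-fold, while all 7 had a negative change when libraries were scaled to plain read totals. The smallest subunit change exceeded the largest assembly factor change by 0.11 on the log2 scale. Genes with levels in the range of the subunits (4.10 to 10.2 log2 CPM) had a median log2 change of 0.10, and 37.2% of those 4987 genes were higher. In the range of the assembly factors (2.95 to 6.26 log2 CPM) the median of 5635 genes was −0.08, and 26.1% were higher. The gap between subunits and assembly factors depended on the scaling: quantile normalization, which equates the whole distribution of values between libraries, gave medians of 0.54 for the subunits and 0.56 for the assembly factors.

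The 7 nuclear core subunits, which carry the flavin and the iron-sulphur clusters, were all higher, with a median of 2.31-fold. The 25 accessory subunits had a median of 2.08-fold and none exceeded a log2 change of 1.19. Under quantile normalization the median log2 changes were nearly level, 0.56 for core and 0.53 for accessory subunits. Ndufs1 then had 0.76, below the accessory subunits Ndufb4 (1.31) and Ndufa3 (0.96). Under the authors' scaling the largest change of all members was in Ndufs1 (ENSRNOG00000011849, rn6 chromosome 9, 69919867 to 69953182). It encodes the biggest protein of the NADH-oxidising tip and the holder of several iron-sulphur clusters. Ndufs1 had 10.04, 10.04 and 9.93 log2 CPM in shDesmin libraries, against 8.77, 8.35 and 8.39 log2 CPM in null libraries. The groups were separated by 1.16 on the log2 scale, more than the whole range within either group. The change was 2.82-fold (log2 change 1.50, SE 0.12, limma adjusted p = 1.5e-06), above that of 95.7% of all genes tested. Ndufv2, which holds an iron-sulphur cluster beside the flavin, had 9.89, 10.18 and 9.93 log2 CPM in shDesmin libraries, against 8.31, 8.55 and 8.75 log2 CPM in null libraries. Its change was 2.75-fold (log2 change 1.46, SE 0.12, limma adjusted p = 2.8e-06).

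Core subunits of the coenzyme Q part are described next. Ndufs3, a scaffold around which the matrix arm is first put together, had 9.03, 9.29 and 9.10 log2 CPM in shDesmin libraries, against 7.61, 7.93 and 8.03 log2 CPM in null libraries. Its change was 2.44-fold, with no overlap between groups. Ndufs7, which carries the last iron-sulphur cluster before coenzyme Q, had 9.23, 9.50 and 9.26 log2 CPM in shDesmin libraries, against 7.86, 8.27 and 8.37 log2 CPM in null libraries. Ndufs8, which holds a pair of clusters in the same arm, had 8.78, 9.03 and 8.81 log2 CPM in shDesmin libraries, against 7.55, 7.79 and 8.00 log2 CPM in null libraries. These are changes of 2.24-fold for Ndufs7 and 2.13-fold for Ndufs8.

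The exception among core subunits was Ndufv1, which binds NADH and the flavin. Ndufv1 had 10.61, 10.78 and 10.66 log2 CPM in shDesmin libraries, against 9.64, 9.83 and 9.94 log2 CPM in null libraries. Its change of 1.84-fold (log2 change 0.88, SE 0.11, limma adjusted p = 3.8e-05) ranked 28 among the 40 members. The proteins of Ndufv1 and Ndufv2 sit side by side in the tip. The log2 level of Ndufv2 minus that of Ndufv1 was −0.73, −0.60 and −0.74 in shDesmin libraries, against −1.33, −1.28 and −1.19 in null libraries. This within-library difference does not depend on how libraries are scaled to each other by a single factor, and it was larger by 0.58 in shDesmin cells without overlap. An exact two-sided permutation test gave p = 0.1, the smallest that 3 libraries against 3 allow. Ndufs1 minus Ndufv1 was −0.57, −0.74 and −0.74 in shDesmin libraries, against −0.87, −1.49 and −1.54 in null libraries. It was larger by 0.62 in shDesmin cells, and null replicate 1 lay near the shDesmin values.

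Accessory subunits surround the core in both arms. The NADH-oxidising tip as a whole, with 7 measured genes, had a median log2 change of 1.11, the coenzyme Q part with 8 genes 1.13, the proximal membrane arm with 6 genes 1.10 and the distal membrane arm with 11 genes 1.03. All genes in each of these groups were higher. Under the authors' scaling the largest accessory change was in Ndufa8, a membrane arm subunit of the intermembrane space side. Ndufa8 had 8.79, 8.98 and 8.81 log2 CPM in shDesmin libraries, against 7.40, 7.74 and 7.88 log2 CPM in null libraries, a 2.28-fold difference. The smallest subunit change under that scaling was in Ndufb7, which lies on the same side of the distal arm. Ndufb7 had 8.79, 9.15 and 8.91 log2 CPM in shDesmin libraries, against 7.68, 8.29 and 8.41 log2 CPM in null libraries, a 1.77-fold difference that was not called under quantile normalization (log2 change 0.24, limma adjusted p = 0.23). Ndufs4, whose loss in mice and humans causes a severe mitochondrial disease, was 2.16-fold higher. Ndufab1, the mitochondrial acyl carrier protein that also serves lipoic acid synthesis, was 2.18-fold higher. Ndufa9, a coenzyme Q part subunit related to dehydrogenases, was 2.27-fold higher.

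Ndufa4 was first purified with complex I and is now placed in complex IV. It had 10.25, 10.51 and 10.21 log2 CPM in shDesmin libraries, against 8.99, 9.35 and 9.52 log2 CPM in null libraries, a 2.05-fold difference. Its log2 change was 0.10 under quantile normalization and was then not called (limma adjusted p = 0.47). Its paralogue Ndufa4l2, and the subunit genes Ndufa1, Ndufa13, Ndufb1, Ndufs5 and Ndufs6, were not analysed here. Of the members, 7 overlap another listed gene in position (Ndufs3, Ndufa8, Ndufb5, Ndufa2, Ndufb6, Ndufs8 and Ndufa4). The use of strand in counting is not given in the sources used here, so reads of overlapping genes could be shared and those values are uncertain.

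The assembly factors of the Nduf name act on intermediates and are absent from the finished complex. Their roles are best known from human cells. Ndufaf3 and Ndufaf4 bind the early coenzyme Q part. Ndufaf3 had 6.46, 6.73 and 6.66 log2 CPM in shDesmin libraries, against 5.66, 5.95 and 6.11 log2 CPM in null libraries, a log2 change of 0.71. Ndufaf4 had 6.07, 6.14 and 6.12 log2 CPM in shDesmin libraries, against 5.49, 5.62 and 5.73 log2 CPM in null libraries, a log2 change of 0.49. Both were higher with no overlap, by 1.64-fold and 1.41-fold. Ndufaf6, an early factor needed for the membrane-side subunits, changed by 0.70, and Ndufaf7, a methyltransferase, by 0.59 on the log2 scale. Ndufaf7 had 4.46, 4.69 and 4.47 log2 CPM in shDesmin libraries, against 3.93, 3.81 and 4.10 log2 CPM in null libraries.

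Ndufaf2 is a paralogue of the subunit Ndufa12 and occupies its place before the tip is added. Ndufaf2 had 3.29, 3.17 and 3.22 log2 CPM in shDesmin libraries, against 2.80, 2.43 and 2.80 log2 CPM in null libraries. Its change of 1.47-fold (SE 0.18 on the log2 scale, limma adjusted p = 0.0196) rested on few reads, from 59 upward, and missed the threshold without shDesmin replicate 1 and without null replicate 2. Ndufa12 had 6.81, 7.07 and 6.94 log2 CPM in shDesmin libraries, against 5.67, 5.88 and 6.12 log2 CPM in null libraries. Ndufa12 minus Ndufaf2 was 3.52, 3.90 and 3.72 in shDesmin libraries, against 2.88, 3.45 and 3.32 in null libraries on the log2 scale. The pair thus differed by 0.50 more in shDesmin cells, without overlap (exact two-sided permutation p = 0.1, the smallest possible). Under quantile normalization their log2 changes were close, 0.88 for Ndufa12 and 0.78 for Ndufaf2.

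For 2 assembly factors the groups overlapped. Ndufaf5, which hydroxylates the Ndufs7 protein, had 4.51, 4.70 and 4.14 log2 CPM in shDesmin libraries, against 4.09, 4.30 and 4.22 log2 CPM in null libraries. Ndufaf1, a part of the mitochondrial complex I intermediate assembly (MCIA) complex that builds the membrane arm, had 4.46, 4.54 and 4.05 log2 CPM in shDesmin libraries, against 4.48, 4.22 and 4.24 log2 CPM in null libraries. In both genes shDesmin replicate 3 was the lowest of its group and lay below at least 1 null library. The log2 changes were 0.25 (SE 0.16, limma adjusted p = 0.19) for Ndufaf5 and 0.04 (SE 0.16, limma adjusted p = 0.84) for Ndufaf1, with neither called.

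Assembly factors without an Nduf name were listed beside them. Of 11 measured, 8 were higher, 2 were lower and 1 was not called, with a median log2 change of 0.63, or −0.08 under read totals. Tmem126a, which in human cells helps build the distal membrane arm, had 6.42, 6.59 and 6.39 log2 CPM in shDesmin libraries, against 4.43, 4.62 and 4.86 log2 CPM in null libraries. Its 3.54-fold change exceeded that of all 40 members. Tmem70, needed for ATP synthase and complex I in human cells, was 2.17-fold higher. Tmem186, an MCIA protein, had 4.14, 4.02 and 4.14 log2 CPM in shDesmin libraries, against 4.94, 5.05 and 5.13 log2 CPM in null libraries, a log2 change of −0.94 (limma adjusted p = 4.7e-05). Under read totals 2 of the 11 were higher, Tmem126a and Tmem70, and 3 were lower, beside 7.27% and 62.5% of all genes. The next genes were named after their values were seen. Ecsit and Acad9, which act with Ndufaf1 in the MCIA complex, had log2 changes of 0.89 and 0.63, and both were called higher. Timmdc1, which acts on the proximal membrane arm, had a log2 change of −0.60, and Tmem126b had 0.22 and was not called (limma adjusted p = 0.16). The 3 genes lower under read totals were Tmem186, Timmdc1 and Tmem126b.

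**Figure D2:**
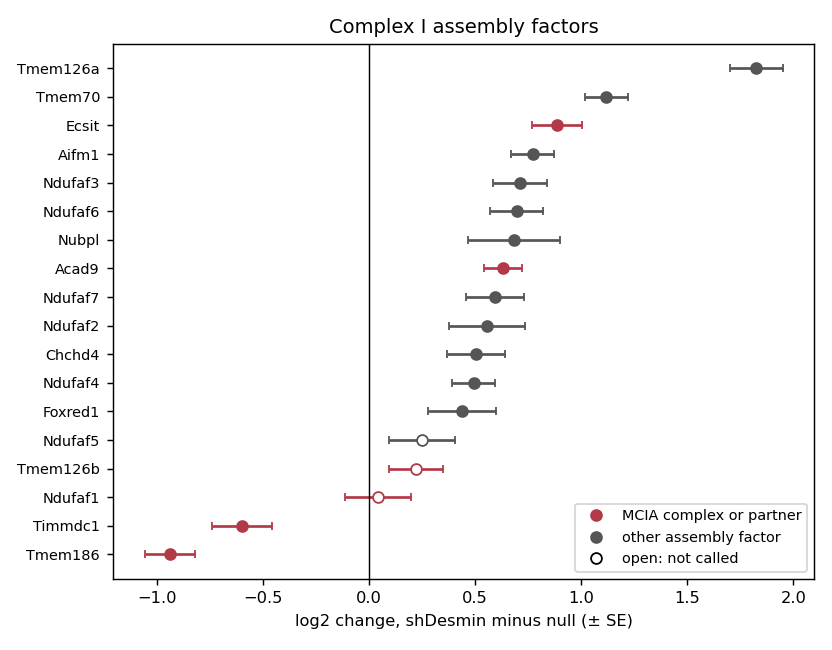
Log2 change (shDesmin minus null, log2 CPM) with bars of 1 standard error for all 18 measured assembly factors, with those of the MCIA complex and its partners coloured, a grouping chosen after the values were seen. Open points were not called. Tmem126a lies at 1.82 and Tmem186 at −0.94. Under scaling to read totals all 7 Nduf factors, Acad9, Chchd4, Foxred1, Nubpl and Tmem126b turn negative.

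The mitochondrial genome encodes the proton-pumping core of the membrane arm. All 6 measured Mt-nd genes were higher, with a median log2 change of 0.97. Under quantile normalization the median was −0.01, with 1 gene called higher and 1 lower, Mt-nd1 at −0.36. Mt-nd5 had 13.20, 13.45 and 13.34 log2 CPM in shDesmin libraries, against 11.90, 12.16 and 12.28 log2 CPM in null libraries, a 2.34-fold difference. Mt-nd4l and Mt-nd6 were 2.24-fold and 1.92-fold higher, with Mt-nd6 at 0.02 on the log2 scale under quantile normalization. Reads of Mt-nd genes per read of a nuclear subunit gene were 5.33, 5.74 and 6.26 in shDesmin libraries, against 5.95, 6.32 and 6.69 in null libraries. These ratios overlapped between groups. Of the genes of proteins that help join complexes into supercomplexes, all 3 measured were higher, Cox7a2l by 2.09-fold, Higd1a by 1.88-fold and Higd2a by 1.56-fold. All 3 kept their call under quantile normalization. Under read totals only Cox7a2l did, with log2 changes of 0.20 for Higd1a and −0.07 for Higd2a. For the other respiratory complexes, 4 of 4 genes of complex II, 9 of 9 of complex III and 14 of 14 of complex V were higher. Of 12 entries of complex IV, where Cox6b1 appears more than once, 11 were higher. The lower one was Cox6a1, named after its value was seen, with a log2 change of −0.51. The median log2 changes of complexes II to V were 1.37, 1.12, 0.96 and 1.12, beside 1.09 for the complex I subunits. The differences between complexes were not tested. Under quantile normalization these medians were 0.65, 0.28, 0.16 and 0.36, beside 0.54 for the complex I subunits, so the order of the complexes changed with the scaling. On that scale 4, 6, 5 and 8 entries of complexes II to V were called higher, and 0, 0, 1 and 0 lower.

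Measured within each library, the members took a larger share of reads in shDesmin cells. Of reads on nuclear genes, 2.43%, 2.69% and 2.44% fell on the members in shDesmin libraries, against 1.53%, 1.82% and 1.97% in null libraries. The means were 2.52% ± 0.14 and 1.77% ± 0.23 (SD, n = 3 each), a ratio of 1.42 with no overlap, and the exact two-sided permutation test gave p = 0.1, the smallest possible. With mitochondrial genes in the total, the shares were 1.58%, 1.63% and 1.49% in shDesmin libraries, against 1.15%, 1.27% and 1.29% in null libraries. Subunit genes had 67.6, 70.5 and 66.6 reads per read of an Nduf assembly factor in shDesmin libraries, against 42.9, 49.1 and 49.8 in null libraries. This balance does not depend on how libraries are scaled to each other by a single factor, and it did not overlap. Quantile normalization is not such a scaling, and under it the median changes of subunits and assembly factors were level, as given above.

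**Figure D3:**
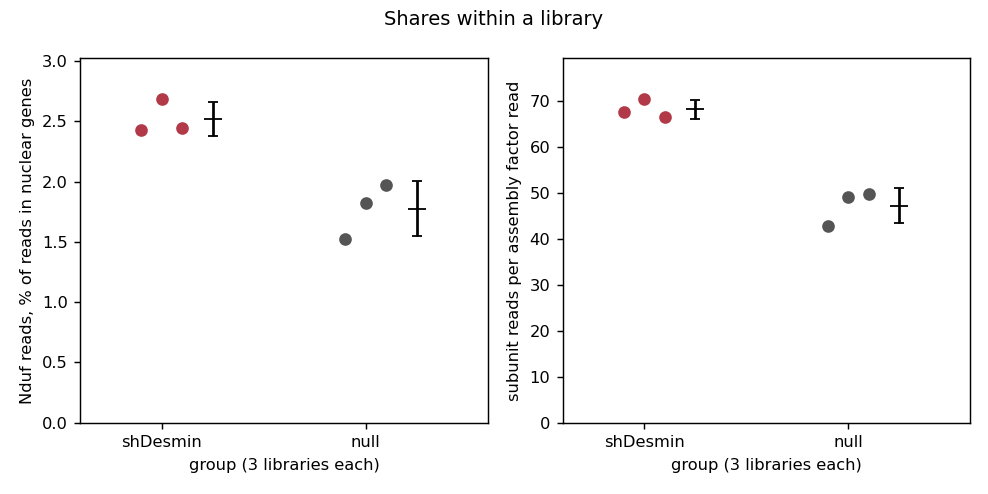
Quantities computed within each library, shDesmin left of null, with 1 point a library: the members' share of reads on nuclear genes (percent, left panel) and reads of subunit genes per read of an Nduf assembly factor (right panel). Bars give the mean and SD of the 3 libraries. Both quantities are higher in every shDesmin library than in any null library.

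The members also moved together among libraries of a group. The shDesmin replicate 2 library was the highest of its group for 39 of 40 members, with Ndufaf2 the exception. The null replicate 1 library was the lowest of its group for 35 members, and null replicate 3 the highest for 36. Over all genes tested these shares were 35.1%, 40.4% and 31.5%. The pattern was not particular to complex I. Every measured gene of complexes III and V was also highest in shDesmin replicate 2 of its group. All of them but Uqcrc2 and Atp5a1 were highest in null replicate 3 of the null libraries. The median deviation from the group mean was −0.09, 0.17 and −0.07 on the log2 scale in shDesmin replicates 1 to 3, and −0.25, 0.06 and 0.21 in null replicates 1 to 3. Null replicate 1 also had the smallest share of mitochondrial reads, and null replicate 3 the largest of its group. Ndufs1 stood apart here, being highest in null replicate 1. The SD over libraries had a median of 0.15 in shDesmin cells and 0.23 in null cells.

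**Figure D4:**
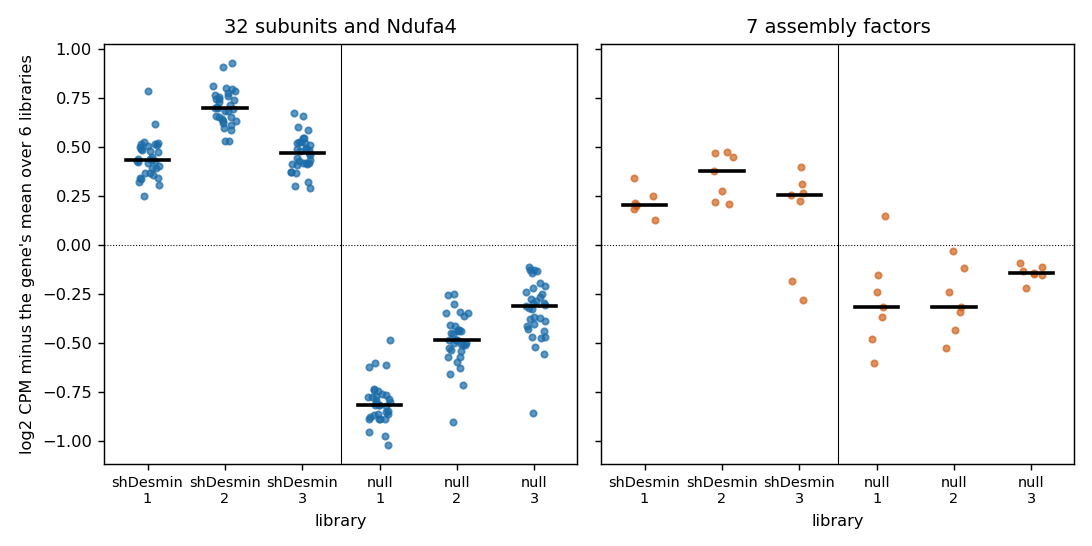
Log2 CPM of each member minus its own mean over the 6 libraries (vertical axis), by library, with shDesmin left of null, for the 32 subunits and Ndufa4 (left panel) and the 7 assembly factors (right panel). Each point is 1 gene and each bar the median of the panel's genes. The subunit points lie above 0 in every shDesmin library and below 0 in every null library, with null replicate 1 lowest, while the assembly factor points cross 0 in shDesmin replicate 3 and null replicate 1.

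The size of every change depends on how libraries are set on a common scale, and this moved the median of all genes. The authors' factors ran from 0.73 to 0.83 in shDesmin libraries and from 1.17 to 1.42 in null libraries. Scaled to plain read totals, the median log2 change of all genes was −0.75 and that of the members 0.33. Under that scale 25 members were higher, all of them subunits or Ndufa4, and 2 were lower, Ndufaf1 and Ndufaf5, while 7.27% of all genes were higher and 62.5% lower. All 33 subunit genes had a positive change and all 7 assembly factors a negative one. With mitochondrial genes left out of the totals, 28 members were higher and 1 was lower, Ndufaf1, beside 10.4% and 56.7% of all genes. Centred on the library median, 39 members were higher and 0 lower, beside 36% and 24.5% of all genes. Under quantile normalization 30 members were higher, 25 subunits or Ndufa4 and 5 assembly factors, and 0 were lower, while 28.2% of all genes were higher and 28.9% lower. The 8 calls lost there were those of Ndufa4, Ndufa5, Ndufa11, Ndufb7, Ndufb8, Ndufb9, Ndufb11 and Ndufv1, with changes of −0.07 for Ndufv1 and −0.08 for Ndufb9.

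**Figure D5:**
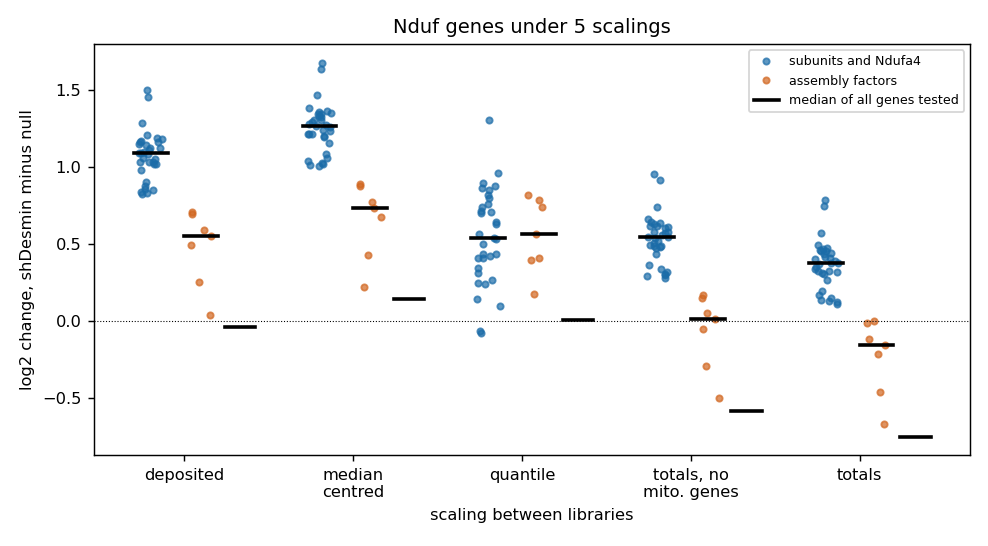
Log2 change of the members (shDesmin minus null) under each of 5 ways of scaling the libraries, with subunits and Ndufa4 apart from assembly factors and the median of all genes marked. Points are genes and bars are medians. The medians of both member groups lie above the median of all genes under each scaling, and under quantile normalization the subunit median of 0.54 and the assembly factor median of 0.56 lie level.

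No member lay in a lamina-associated domain, a stretch of genome at the nuclear edge, as the authors called them in scrambled control cells. With at least 50% of the gene covered, 0 of 40 members and 3.95% of all genes tested (436 of 11033) were inside 1 of the 1883 domains. Any overlap gave 0 and 4.70%. With so small a share of all genes inside, 0 of 40 is near the background and does not set the members apart. The nearest was Ndufa4, which lay 37.7 kilobases from a domain of 1760 kilobases on rn6 chromosome 4 (36435601 to 38195999). Ndufb6 and Ndufaf5 followed at 120 and 127 kilobases. The median distance was 448 kilobases for the members and 823 kilobases for all genes tested. The members sit on 16 chromosomes, with 6 on chromosome 1 and 5 each on chromosomes 7 and 9. The closest members are the core subunit genes Ndufs8 and Ndufv1, 110 kilobases apart on chromosome 1, and their log2 changes were 1.09 and 0.88.

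Promoters were searched for motifs of factors known to act on nuclear respiratory genes, and 4 that hold a motif are shown. RefSeq promoters of the GRCr8 build, taken as 250 bases before the gene start, matched 36 of the 40 members by symbol. They were searched on both strands for CCGGAAG, a core of the ETS factor GABP, for GCATGCG, a core of NRF1, and for AAGGTCA, an element of oestrogen-related receptors. Ndufs1 (chr9:72073606-72073855, minus strand) and Ndufaf1 (chr3:127104021-127104270, minus strand) had the largest and the smallest change under the authors' scaling, and both hold the ETS core. Of the 36 promoters 25, those of Ndufv2 and Ndufs3 among them, hold none of the motifs. Ndufa11 (chr9:1637364-1637613, plus strand), 1.87-fold higher, and Ndufaf4 (chr5:43401545-43401794, plus strand) hold the NRF1 core in several copies and are shown for that. The copies overlap between strands in Ndufa11, and in Ndufaf4 a pair overlaps while the others stand alone. Capitals mark the motifs, in either direction.
Ndufs1: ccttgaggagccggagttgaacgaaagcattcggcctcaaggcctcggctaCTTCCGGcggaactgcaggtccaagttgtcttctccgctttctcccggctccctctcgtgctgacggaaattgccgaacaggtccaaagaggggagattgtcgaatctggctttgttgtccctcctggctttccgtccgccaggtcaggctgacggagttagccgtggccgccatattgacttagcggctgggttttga
Ndufaf1: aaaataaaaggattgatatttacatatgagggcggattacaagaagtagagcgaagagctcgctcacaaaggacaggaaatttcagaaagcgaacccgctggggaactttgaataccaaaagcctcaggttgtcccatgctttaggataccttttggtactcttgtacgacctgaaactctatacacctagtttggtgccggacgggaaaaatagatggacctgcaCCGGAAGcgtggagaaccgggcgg
Ndufa11: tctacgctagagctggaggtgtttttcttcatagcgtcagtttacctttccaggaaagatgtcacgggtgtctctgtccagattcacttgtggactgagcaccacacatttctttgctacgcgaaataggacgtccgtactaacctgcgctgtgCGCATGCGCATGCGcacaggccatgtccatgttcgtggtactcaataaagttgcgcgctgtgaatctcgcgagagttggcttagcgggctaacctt
Ndufaf4: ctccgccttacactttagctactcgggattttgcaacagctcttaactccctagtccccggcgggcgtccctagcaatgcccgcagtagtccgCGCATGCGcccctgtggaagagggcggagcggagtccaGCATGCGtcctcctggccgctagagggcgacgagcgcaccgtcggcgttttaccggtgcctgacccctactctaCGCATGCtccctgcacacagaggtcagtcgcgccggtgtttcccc

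The ETS core lay 199 bases before the start in Ndufs1 and 24 bases before it in Ndufaf1. It was found in 6 of 36 member promoters (16.7%), among 15.3% of promoters of genes tested here and 7.27% of all promoters. The NRF1 core was in 5 of 36 (13.9%), among 5.99% of tested genes and 2.93% of all promoters. The oestrogen-related receptor element was in 1 of 36 (2.78%), that of Ndufb2, among 2.44% of tested genes and 3.99% of all promoters. These are matches of letters, not bound sites.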

How the data were processed

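The deposited RNA table holds log2 values scaled per library by the authors. Trimmomatic 0.32, STAR 2.6.0c, featureCounts, edgeR and limma are named in the submitters' processing notes without their order. Checked on the values, each is the log2 of a whole read count plus 0.5 times a step fixed per library, within 0.001 for 100% of values. The constant shared by all libraries was subtracted, assuming scaling factors that multiply to 1, which gives log2 CPM. As a floor for counting error alone, 3 reads correspond to 0.230 to 0.447 CPM. Since reads plus 0.5 were logged, changes of low genes are slightly shifted, in a direction that differs between genes. With 2 reads added instead, the log2 change went from 0.040 to 0.045 in Ndufaf1 and from 0.554 to 0.557 in Ndufaf2. In Ndufb4 it went from 1.163 to 1.159. No transcript lengths were used, so levels are not compared between genes.

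Groups came from the labels. In R 4.3.3, lmFit and a trended eBayes of limma 3.58.1 compared shDesmin with null. Of 11383 genes, 11033 exceeded 0 log2 CPM in 3 or more of the 6 libraries and were tested, two-sided, with the Benjamini-Hochberg adjustment over all of them and a threshold of 0.05. Alternatives covered the filter, the pseudocount, the scaling, library weights, the variance model, a replicate block, each library left out, voom and the authors' table. Same-numbered libraries deviated from their group means with correlations of 0.13, −0.07 and −0.17, and the numbers were not taken as pairs. The chi-square of replicate pairs per degree of freedom was 4.79 to 36.6, beyond sampling noise, so none was merged.

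For comparison only, the authors' deposited differential expression results were read, with p-values, a signed fold score and a t score, per the file headers. The deposited domain list holds rn6 starts and ends from pooled replicates, per the series' design text. The submitters' processing notes also name BWA, Picard, SAMtools, bedtools and deepTools. Promoters are from RefSeq.

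The values of 1 member are not reported here, though counts and medians include it. Apart from it, values in every library are given for core subunits, the 5 largest and 5 smallest changes, members not called and paralogue pairs. Up to 3 genes of other complex I lists with the smallest adjusted p are named. Members and lists were chosen with earlier results of these data known. Other software was pandas 2.3.3, scipy 1.17.1, numpy 2.4.6 and matplotlib 3.10.9 under Python 3.11.15.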

Additional observations from a re-analysis of the deposited data

How the results depend on the processing

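Of the results for single members under all settings, 678 values kept direction and side of the threshold, 25 kept direction but missed it, 2 passed it newly and 15 changed sign. The cause of these changes was not tested. Quantile normalization gave a member median of 0.55, a difference from all genes of 0.55, a subunit median minus assembly factor median of −0.022, and log2 changes of −0.035 for Mt-nd5, −0.076 for Ndufb9 and −0.069 for Ndufv1. Library totals gave 25 members higher and 2 lower, a median of 0.33, 0 assembly factors higher, and 802 genes higher and 6892 lower. The log2 changes then were −0.67 for Ndufaf1, −0.16 for Ndufaf2, −0.00063 for Ndufaf3, −0.22 for Ndufaf4, −0.46 for Ndufaf5, −0.016 for Ndufaf6, −0.12 for Ndufaf7, −0.081 for Acad9, −0.21 for Chchd4, −0.27 for Foxred1, −0.030 for Nubpl and −0.49 for Tmem126b. Totals without mitochondrial genes gave 1 member lower, a median of 0.50, 0 assembly factors higher, 1151 genes higher and 6253 lower. The changes were −0.50 for Ndufaf1, −0.051 for Ndufaf4, −0.29 for Ndufaf5, −0.040 for Chchd4, −0.10 for Foxred1 and −0.32 for Tmem126b. Library weights lowered the subunit minus assembly factor median to 0.38, from 0.53 without them. The members' share of all reads differed by 0.333 percentage points, against 0.745 points of nuclear reads.

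Leaving out 1 library at a time left 37 to 39 members higher and 0 lower, a member median of 0.89 to 1.15 and a subunit median minus assembly factor median of 0.38 to 0.63. The lowest came without null replicate 1. The log2 change of Ndufaf1 ran from −0.056 without shDesmin replicate 2 to 0.19 without shDesmin replicate 3, and was also below 0 without null replicate 2 and without shDesmin replicate 1. With the replicate block 38 members were higher and 0 lower, with 3092 genes higher and 3491 lower, and no count moved by more than 1.5 times. With voom 38 members were higher and 0 lower. The role groups and voom were added after seeing the data. Standard errors of 0.16 for Ndufaf5 and Ndufaf1 limit what these libraries show of small changes.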

Other observations

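The pathways that feed and equip complex I were listed apart from its own genes. Of 13 measured genes that make iron-sulphur clusters, 10 were higher, 1 was lower and 2 were not called in shDesmin cells, with a median log2 change of 0.84. Bola3, a late factor that passes clusters to complex I and lipoate enzymes, was 2.41-fold higher, and Fdx1, a ferredoxin, 2.47-fold. Iscu, the scaffold on which clusters form, was 1.82-fold higher. The lower gene was Iba57, a late maturation factor, with a log2 change of −0.63, named after its value was seen.

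Of 13 measured genes of coenzyme Q synthesis, 9 were higher and 1 was lower, with a median log2 change of 0.78. Coq9 and Coq7, partners in a hydroxylation step, were 2.74-fold and 2.44-fold higher, and Coq2, which joins the ring to its tail, 1.90-fold. The lower gene was Adck4, with −0.96, also named after its value was seen. Of 8 measured genes of enzymes that reduce coenzyme Q beside complex I, 6 were higher, including the 4 genes of complex II already counted above. Among the 6 were Etfdh at 2.98-fold, which takes electrons from fatty acid oxidation, and Sdhd and Sdhc of complex II at 2.92-fold and 2.59-fold. Dhodh and Gpd2, named after their values were seen, had log2 changes of −0.30 and −0.27 and were not called. Of 8 genes that carry or use mitochondrial NADH, 7 were higher, among them Slc25a11, the malate carrier, at 2.56-fold, Nnt at 2.49-fold and Mdh2 at 2.06-fold, which lost its call under quantile normalization with a log2 change of 0.11. Of 4 genes of flavin supply, 2 were higher and 1 lower. The lower gene, the riboflavin transporter Slc52a2, had a log2 change of −2.02, while Slc25a32 and Rfk had 0.52 and 0.50. Scaled to read totals, the list medians were 0.13 for iron-sulphur genes, 0.06 for coenzyme Q synthesis, 0.63 for the other reductases, 0.30 for NADH genes and −0.54 for flavin supply. On that scale 2, 3, 5, 4 and 0 genes of these lists were called higher, and 3, 3, 2, 1 and 2 were called lower. All these counts are from limma with the adjustment over all genes. The shares of all genes called higher and lower were 27.5% and 31.4% under the authors' scaling, and 7.27% and 62.5% under read totals.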
